A study of Mus musculus with 6 samples.

Results

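The 4 tropomyosin genes of the mouse, Tpm1, Tpm2, Tpm3 and Tpm4, were followed through 45 annotated transcripts in RNA sequencing of infarcted heart tissue. They were taken as every transcript row that the annotation assigns to one of these genes, out of 36047 genes and 116816 transcripts joined to a gene. Tpm1 had 21 transcripts, Tpm3 had 16, Tpm2 had 6 and Tpm4 had 2. An estimated count above 0 occurred in at least 1 library for 39 of them, 6 were at 0 in every library, and 32 passed the filter for testing of at least 10 counts in at least 3 libraries.

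The tissue was the infarct area of C57BL6 mouse hearts, which the study's methods describe as female animals, taken 48 hours after ischemia/reperfusion (I/R), in which a coronary artery is tied and then reopened. The labels gave an age of 12 weeks for all 6 libraries. 3 libraries came from mice given LGK-974, an inhibitor of the enzyme porcupine that Wnt proteins need for secretion, by oral gavage each day, and 3 from mice given the DMSO vehicle in citrate buffer. All mice of both groups had I/R surgery, and no library without surgery was analysed here, so the comparison asks how blockade of Wnt secretion altered transcripts in injured tissue, not how injury did. For sequencing 3 mice of each group were killed, which matches 1 mouse per library, and p-values measure the spread between these libraries.

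Tropomyosins are coiled-coil proteins that lie end to end along actin filaments and govern which other proteins reach the actin. In striated muscle they work with the troponin complex to switch contraction on and off with calcium, while outside muscle different forms mark different actin filaments in stress fibres, the cell cortex and sites of movement. The family makes many proteins. In Tpm1 and Tpm3, a long start (exon 1a) and a short start (exon 1b) come from separate promoters. In the annotation used here, Tpm2 has only the start 1a and Tpm4 only 1b. In Tpm1, Tpm2 and Tpm3, internal exons (6a or 6b) and last exons (9a in striated muscle, 9d in smooth muscle and nonmuscle cells, 9c in brain) are chosen by splicing. Long forms are typical of muscle and of stress fibres, and short forms of the general cytoskeleton.

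Depth ranged from 41579787 to 80398211 estimated counts. Libraries differed in ways that the groups did not account for: mitochondrial transcripts took 28.2% of the counts in LGK-974 replicate 3 and 53.7% in LGK-974 replicate 2, with the others between these values. For 1468 olfactory and vomeronasal receptor genes, which heart tissue is not known to use, the share with at least 1 count was 99.3% in DMSO replicate 1 and between 61.0% and 89.0% elsewhere. DMSO replicate 1 and LGK-974 replicates 2 and 3 therefore stood apart. The main results that move without DMSO replicate 1 or LGK-974 replicate 3 are given with and without it, and some also without LGK-974 replicate 2. Defining heart muscle genes (Myh6, Ttn, Ryr2) were abundant in every library: 12 cardiomyocyte markers summed to between 36621 and 58341 CPM (counts scaled to library size with TMM factors, which correct for library composition). Skeletal muscle markers summed to between 4.40 and 13.4 CPM.

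The coordinates below are on GRCm38. Tpm1, the gene of the main cardiac tropomyosin, lies on chr9:67022590-67049406 on the minus strand. Tpm2, the gene of beta-tropomyosin, lies on chr4:43514711-43523765 on the minus strand. Tpm3 lies on chr3:90072649-90100902 and Tpm4 on chr8:72134975-72153142, both on the plus strand. The transcript Tpm1-205 (ENSMUST00000113685) joins exons 1a, 2b, 6b and 9a, which is the striated alpha-tropomyosin. Tpm2-203 (ENSMUST00000107914) joins 1a, 6a and 9d, the smooth muscle and fibroblast form, and Tpm2-202 (ENSMUST00000107913) joins 1a, 6b and 9a, the striated form. Tpm3-201 (ENSMUST00000029549) joins 1b, 6a and 9d, Tpm3-202 (ENSMUST00000118566) joins 1b, 6b and 9a, and Tpm4-201 (ENSMUST00000003575) joins 1b and 9d. The coding sequences of the long forms Tpm1-205 and Tpm2-203 span 852 bases and were identical at 72.42% of positions, and those of the short forms Tpm3-201 and Tpm4-201 span 744 bases and were identical at 71.51%.

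**Figure D1:**
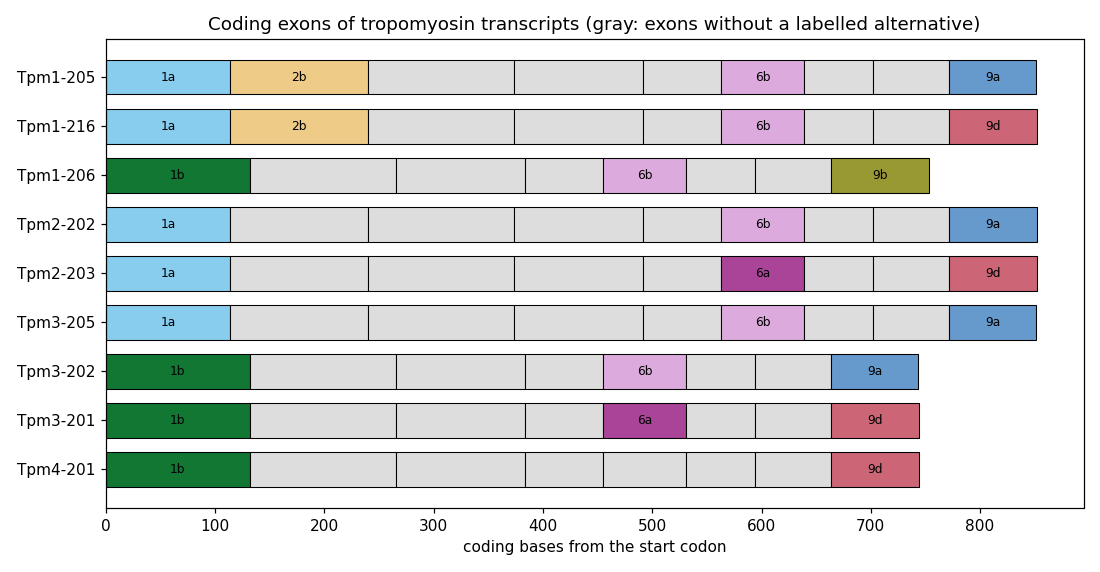
Coding exons of 9 tropomyosin transcripts, drawn to scale in bases from the start codon, with start exons, last exons and alternative internal exons labelled. Long forms that start with exon 1a end near 852 bases, and short forms that start with exon 1b end near 744 bases.

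The exons that separate these forms are shown because the isoform counts rest on reads that can tell them apart. The short start exon 1b is shared by Tpm3 and Tpm4, the genes whose levels differed most between the groups. It lies in Tpm3 at chr3:90079732-90079863 and in Tpm4 at chr8:72135322-72135453, both plus strand. Capitals mark the 40 of 132 coding bases at which the genes differ.
Tpm3 exon 1b: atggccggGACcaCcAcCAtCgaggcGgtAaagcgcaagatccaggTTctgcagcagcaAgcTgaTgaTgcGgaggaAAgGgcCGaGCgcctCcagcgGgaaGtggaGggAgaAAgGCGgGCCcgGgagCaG
Tpm4 exon 1b: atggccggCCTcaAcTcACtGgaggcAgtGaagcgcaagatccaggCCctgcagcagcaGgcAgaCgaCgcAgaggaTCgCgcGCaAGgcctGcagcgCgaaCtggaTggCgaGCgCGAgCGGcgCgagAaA

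The internal pair 6a and 6b and the end pair 9a and 9d of Tpm2 separate its smooth muscle form from its striated form. They lie on the minus strand of chr4, with 6a at chr4:43519003-43519078, 6b at chr4:43518644-43518719, 9a at chr4:43515924-43516003 and 9d at chr4:43514782-43514861. Capitals mark the bases that differ within each pair, 35 of 76 for exon 6 and 47 of 80 for the coding part of exon 9.
Tpm2 exon 6a: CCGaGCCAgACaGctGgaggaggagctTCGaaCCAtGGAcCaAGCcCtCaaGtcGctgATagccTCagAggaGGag
Tpm2 exon 6b: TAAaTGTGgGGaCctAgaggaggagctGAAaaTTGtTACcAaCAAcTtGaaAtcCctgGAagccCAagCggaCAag
Tpm2 exon 9a: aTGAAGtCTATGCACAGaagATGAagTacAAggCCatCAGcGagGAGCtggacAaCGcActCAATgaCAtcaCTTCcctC
Tpm2 exon 9d: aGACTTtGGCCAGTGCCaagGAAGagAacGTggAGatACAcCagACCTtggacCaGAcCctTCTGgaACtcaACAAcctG

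The same choice in Tpm3 separates its nonmuscle form Tpm3-201 (6a) from Tpm3-202 (6b). Exon 6a lies at chr3:90088401-90088476 and 6b at chr3:90089048-90089123 on the plus strand, and capitals mark the 37 of 76 bases that differ.
Tpm3 exon 6a: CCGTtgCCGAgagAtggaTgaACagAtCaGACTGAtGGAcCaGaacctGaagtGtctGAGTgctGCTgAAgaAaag
Tpm3 exon 6b: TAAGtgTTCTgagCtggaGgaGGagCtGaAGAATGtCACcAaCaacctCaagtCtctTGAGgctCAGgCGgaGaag

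Reads that Kallisto cannot assign to 1 transcript are divided between transcripts, so the share of sequence that is unique sets how firm a value is. Over words of 31 bases, the program's usual length, 99.87% of the Tpm1 words and 99.70% of the Tpm2 words occurred in no other gene, against 73.01% for Tpm3 and 84.03% for Tpm4. Tpm3 transcripts with a complete coding sequence shared words with 9 other annotated genes, chiefly the copy Tpm3-rs7 with 1664 words. Some Tpm3 transcripts that retain an intron, Tpm3-215 among them, also shared words with further genes, such as Bcl2 and Slc3a2. Counts on those further genes were not examined. Counts placed on these 9 genes equalled 0.577% to 0.989% of the Tpm3 count in 4 libraries, 2.65% in DMSO replicate 2 and 6.69% in DMSO replicate 1. Within a gene, Tpm4-201 held 1580 unique words of 2098 and Tpm3-201 held 114 of 2200, whereas Tpm1-205 held 0 of 1178, so its amount was estimated wholly from sequence it shares with other Tpm1 transcripts.

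Among the genes, Tpm3 and Tpm4 were higher in every LGK-974 library than in every DMSO library, by 1.69-fold and 1.83-fold, while Tpm1 and Tpm2 overlapped between the groups. None of the 4 passed edgeR's quasi-likelihood test after Benjamini-Hochberg adjustment, and neither did any other of the 20094 genes tested (0%). The unadjusted p was under 0.05 for 1256 genes that were higher with LGK-974 (6.25%) and 1442 that were lower (7.18%), and DESeq2, the study's tool, called 289 of 23567 genes (1.23%), 201 of them higher (0.853%). This DESeq2 count comes from the run made here, and the study reported a larger one. The median log2 fold change of all genes tested was -0.13.

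**Figure D2:**
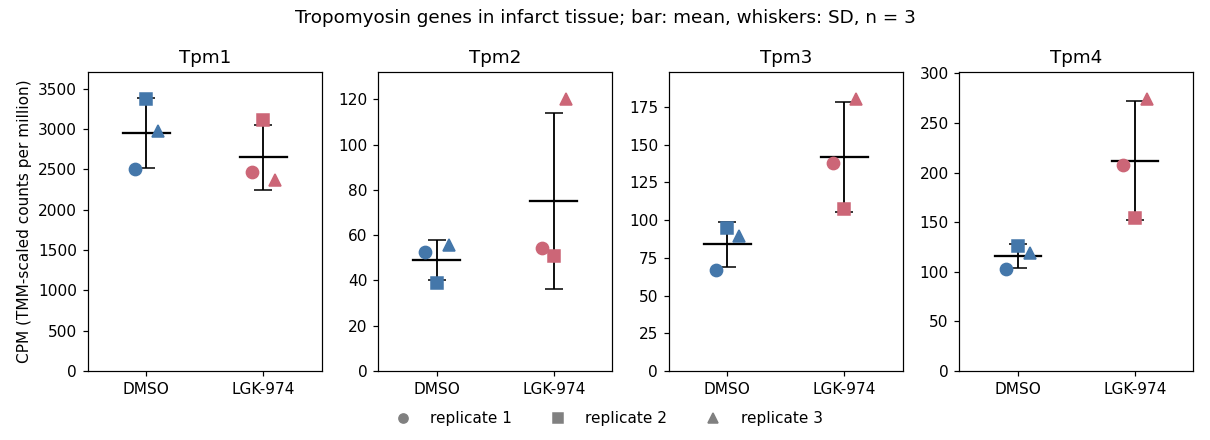
CPM of the 4 tropomyosin genes in each library (y axis, from 0), with DMSO in blue and LGK-974 in red, symbols for the replicate, a bar for the mean and whiskers for the SD of 3 libraries. The 3 LGK-974 points of Tpm3 and of Tpm4 lie above the 3 DMSO points, and those of Tpm1 and Tpm2 overlap.

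Tpm4 makes short tropomyosins of nonmuscle cells. Its level was 208, 154 and 274 CPM in LGK-974 replicates 1, 2 and 3 and 103, 126.2 and 118 CPM in the DMSO replicates. The lowest LGK-974 library, replicate 2, was above the highest DMSO library, and replicate 3 was the highest of all. The log2 fold change was 0.87 ± 0.24 (SE), with an unadjusted p of 0.00689 and an adjusted p of 0.368 in edgeR's quasi-likelihood test. The unadjusted p stayed at or below 0.0270 with any single library left out, and DESeq2 called the gene, with a log2 fold change of 0.90 and an adjusted p of 0.0309.

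Tpm3 also encodes mainly short cytoskeletal forms, besides a long form of slow skeletal muscle. It measured 138, 107 and 180 CPM in the LGK-974 replicates and 67.1, 94.7 and 89.7 CPM in the DMSO replicates. Again no LGK-974 library fell within the DMSO range, and replicate 3 was the highest. The log2 fold change was 0.76 ± 0.24 (SE), with an unadjusted p of 0.0139 and an adjusted p of 0.368 in edgeR's quasi-likelihood test, and DESeq2 gave an adjusted p of 0.0819. Without LGK-974 replicate 3 the log2 fold change of Tpm3 was 0.62 and edgeR's unadjusted p 0.0559. 2 of 4 genes without overlap, both higher, compares with 10.7% of all genes tested that were higher without overlap and 7.27% that were lower.

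Tpm2 encodes beta-tropomyosin, of which one spliced form serves striated muscle and the other smooth muscle and fibroblasts. It measured 54.4, 50.9 and 120 CPM with LGK-974 and 52.4, 38.9 and 55.6 CPM with DMSO. LGK-974 replicate 3 alone lay outside the DMSO range. The log2 fold change was 0.62 ± 0.35 (SE), with an adjusted p of 0.410 in edgeR's quasi-likelihood test. Without LGK-974 replicate 2 it was 0.89, with an unadjusted p of 0.0427 and an adjusted p of 0.535 in the same test. It was 0.18 without LGK-974 replicate 3. The 7 smooth muscle markers also had their highest sum in that library, 554 CPM against 233 to 400 CPM in the other 5, but by only 3 of them, Acta2, Tagln and Cnn1, while the other 4, Myh11 among them, were highest in DMSO replicate 3. The part of these cells in the Tpm2 value was not tested.

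Tpm1 supplies the tropomyosin of the heart muscle sarcomere. It measured 2469, 3104 and 2367 CPM with LGK-974 and 2505, 3370 and 2978 CPM with DMSO. The groups overlapped, and the log2 fold change was -0.16 ± 0.28 (SE), with an adjusted p of 0.788 in edgeR's quasi-likelihood test. Leaving out single libraries gave log2 fold changes between -0.24 and -0.01. In bulk tissue, fewer cells of a type and less RNA per cell cannot be told apart, and this holds for each of these levels.

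Levels of different genes were compared in TPM, the share of transcript molecules, which allows for length. In all 6 libraries the order of these levels was Tpm1, Tpm4, Tpm3, Tpm2. In the DMSO group the mean was 2535 ± 792 TPM (SD, n = 3) for Tpm1, 84.9 ± 4.19 TPM for Tpm4, 54.0 ± 14.1 TPM for Tpm3 and 40.6 ± 10.3 TPM for Tpm2. Tpm3 and Tpm2 overlapped across DMSO libraries, and the other neighbours in this order did not. With LGK-974 the means were 2890 ± 892, 221 ± 146, 119 ± 76.1 and 91.4 ± 83.9 TPM, and the last 3 genes overlapped. The large SDs came with LGK-974 replicate 3, which had the lowest share of mitochondrial counts and the highest TPM of all 4 genes.

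Among single transcripts, 0 of the 32 tested passed edgeR's quasi-likelihood test after adjustment, as for all 58618 transcripts tested (0%), of which 1889 higher (3.22%) and 1206 lower (2.06%) had an unadjusted p under 0.05. DESeq2 called 491 of 62490 transcripts (0.786%), 228 of them higher (0.365%), and none of the tropomyosin transcripts. The log2 fold change was above 0 for 27 tropomyosin transcripts and below 0 for 5, with a median of 0.46 against -0.04 for all transcripts. The groups did not overlap, with LGK-974 higher, for 6 of the 32, against 8.51% of all transcripts tested. An unadjusted p under 0.05 was reached by 2, the protein-coding short forms Tpm3-201 and Tpm4-201.

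Tpm4-201, the only protein-coding transcript of its gene here, measured 201, 145 and 254 CPM with LGK-974 and 88.5, 118 and 114 CPM with DMSO. Every LGK-974 library was higher than every DMSO library. The log2 fold change was 0.90 ± 0.27 (SE), with an unadjusted p of 0.0119 and an adjusted p of 0.853 in edgeR's quasi-likelihood test. The other transcript, Tpm4-202, is a noncoding transcript of 359 bases, and it measured 15.8, 9.75 and 18.1 CPM with LGK-974 and 12.6, 5.45 and 5.41 CPM with DMSO. Its groups overlapped through DMSO replicate 1, and its log2 fold change was 0.89 ± 0.42 (SE), with an unadjusted p of 0.0724 in edgeR's quasi-likelihood test. Without DMSO replicate 1 these were 1.42 and 0.0049, with an adjusted p of 0.678.

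Being short, Tpm4-202 took a large share of the gene's TPM. Tpm4-201 made up 52.4%, 56.3% and 55.7% of Tpm4 TPM with LGK-974 and 38.4%, 65.3% and 64.4% with DMSO. DMSO replicate 1 was far below the other 2 DMSO libraries, and the group means of 54.8% and 56.0% differed by less than the spread (two-sided exact permutation p = 1.0). That comparison turns on DMSO replicate 1: without it the difference was -10.02 points, and all LGK-974 libraries lay below both remaining DMSO libraries. The test of usage, which sets a transcript's change against that of the rest of its gene, gave a log2 difference of 0.00 for Tpm4-201 and -0.01 for Tpm4-202, both small against their SEs of 0.34 and 0.42. Without DMSO replicate 1 they were -0.04 and 0.60.

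Tpm3-201 measured 93.0, 73.2 and 120 CPM with LGK-974 and 36.8, 59.0 and 52.6 CPM with DMSO, again without overlap. Its log2 fold change was 0.95 ± 0.27 (SE), with an unadjusted p of 0.0109 and an adjusted p of 0.853 in edgeR's quasi-likelihood test. Tpm3-202, which has the same start but exons 6b and 9a, measured 31.6, 21.4 and 37.8 CPM with LGK-974 and 16.6, 21.8 and 23.9 CPM with DMSO. Here LGK-974 replicate 2 lay within the DMSO range, and the log2 fold change was 0.54 ± 0.27 (SE) with an unadjusted p of 0.0839. Without LGK-974 replicate 2 these were 0.74 and 0.0274, with an adjusted p of 0.925.

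Within Tpm3, transcripts with exon 9a made up 15.4%, 15.7% and 15.7% of the gene's TPM with LGK-974 and 16.5%, 18.9% and 20.6% with DMSO. The LGK-974 libraries were all lower, with a mean difference of -3.03 points (-4.95 points as shares of estimated counts, which do not allow for length). Transcripts with exon 6b behaved alike, at 15.4%, 16.9% and 16.3% against 17.7%, 18.9% and 21.1%, and most of both groups is the same transcript, Tpm3-202. Tpm3-201, a short form like Tpm3-202, made up 42.7%, 47.7% and 47.0% with LGK-974 and 32.2%, 44.4% and 38.9% with DMSO, where DMSO replicate 2 overlapped. Its mean difference was 7.33 points, and 4.17 points without DMSO replicate 1.

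The long start 1a was rare in Tpm3: 1.23%, 1.48% and 0.69% of TPM with LGK-974 and 1.67%, 3.19% and 2.75% with DMSO. All LGK-974 libraries were lower. Both transcripts that hold it were scarce, so these shares rest on few counts. Tpm3-205, the long striated form with 6b and 9a, measured 0.562, 1.04 and 0.726 CPM with LGK-974 and 0.882, 1.33 and 1.57 CPM with DMSO. Tpm3-204, with 6a and 9d, measured 1.45, 0 and 0.201 CPM against 0, 1.37 and 0.295 CPM, and overlapped. For each of these Tpm3 shares of TPM without overlap the two-sided exact permutation p was 0.1, the smallest that 3 libraries against 3 can give, and 0.229 after adjustment over 39 shares.

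The remaining Tpm3 transcripts with at least 5% of its TPM were short, 341 to 655 bases: Tpm3-206 and Tpm3-214, which hold an incomplete coding sequence, and Tpm3-212 and Tpm3-215, which retain an intron. Their levels lay between 0 and 5.79 CPM, and every one overlapped between the groups. Tpm3-214 ranged from 0% to 13.6% of the gene's TPM among DMSO libraries alone. The log2 fold changes were between 0.26 for Tpm3-215 and 1.23 for Tpm3-214.

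**Figure D3:**
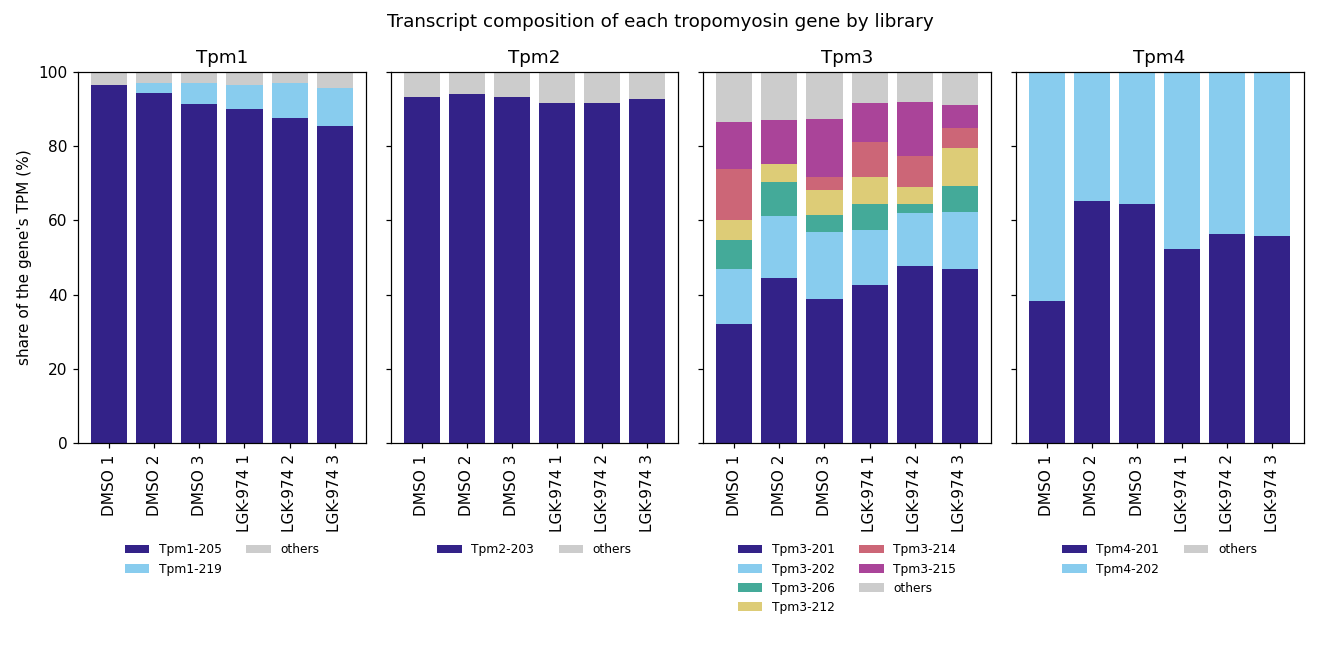
Share of each gene's TPM (y axis, %) taken by transcripts with at least 5% in either group, one stacked bar per library, other transcripts in gray. Tpm1-205 and Tpm2-203 dominate their genes in every library, Tpm1-219 is larger in each LGK-974 bar than in each DMSO bar, and DMSO replicate 1 differs from the other DMSO bars in Tpm3 and Tpm4.

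Tpm2 was made up almost wholly of its smooth muscle and fibroblast form. Tpm2-203 held 91.6%, 91.7% and 92.7% of Tpm2 TPM with LGK-974 and 93.3%, 94.0% and 93.1% with DMSO. The LGK-974 libraries were all lower, with a difference of -1.46 points of TPM and -3.18 points of estimated counts. Transcripts with the striated exon 9a held 7.26%, 7.46% and 5.55% against 4.81%, 3.90% and 5.16%, all higher with LGK-974, by 2.13 points of TPM and 3.72 points of estimated counts. The two-sided exact permutation p was 0.1 for the TPM shares of Tpm2-203 and of exon 9a, and shares of estimated counts were not tested. The transcript with both striated exons, Tpm2-202, measured 5.39, 4.04 and 10.49 CPM with LGK-974 and 3.09, 0 and 4.45 CPM with DMSO, where the groups overlapped. Its log2 fold change of 1.40 ± 1.35 (SE) includes the library at 0, DMSO replicate 2.

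Tpm1 was almost wholly the striated form. Tpm1-205 measured 2375, 2847 and 2095 CPM with LGK-974 and 2361, 3140 and 2798 CPM with DMSO, with a log2 fold change of -0.18 ± 0.28 (SE). Its share of Tpm1 TPM was 89.9%, 87.6% and 85.5% with LGK-974 and 96.4%, 94.4% and 91.2% with DMSO. The LGK-974 libraries were all lower, with a difference of -6.33 points of TPM (two-sided exact permutation p = 0.1) and -3.84 points of estimated counts.

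The counterpart of this difference was a single noncoding transcript. Tpm1-219 (ENSMUST00000131279), 649 bases in 4 exons, held 6.44%, 9.42% and 10.3% of Tpm1 TPM with LGK-974 and 0.213%, 2.69% and 5.70% with DMSO. The difference was 5.83 points of TPM and 2.74 points of estimated counts. In CPM it measured 75.4, 136 and 113 with LGK-974 and 2.33, 39.7 and 77.2 with DMSO, where the top DMSO library overlapped the lowest LGK-974 library. The usage test gave a log2 difference of 1.57 ± 0.69 (SE) with an unadjusted p of 0.0262 and an adjusted p of 1.0 (edgeR's quasi-likelihood test), and 1.12 to 2.46 with single libraries left out. 96 of its 619 words of 31 bases were unique.

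With only protein-coding transcripts in the denominator, the share of Tpm1-205 differed by only -0.61 points. The shares of exons 1a, 2b, 6b and 9a within all Tpm1 transcripts differed by -6.27 to -5.95 points, and the denominator of each includes Tpm1-219. The alternative Tpm1 exons were rare in every library: exon 1b held 0.638% to 1.18% of Tpm1 TPM, exon 9d 0.503% to 1.17%, exon 2a 0.298% to 0.665% and exon 6a 0.027% to 0.363%. All of these overlapped between the groups. Of the 50979 transcripts tested for usage, edgeR's quasi-likelihood test called 68 after adjustment (0.133%), and 0 of the tropomyosin transcripts were among them. An unadjusted p under 0.05 was reached by 822 transcripts (1.61%) and by 2 tropomyosin transcripts, Tpm1-219 and Tpm1-207, of which the latter had 22.003 CPM in DMSO replicate 1 and at most 1.21 CPM in any other library.

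Of 39 shares computed for transcripts, exon groups and genes, 17 did not overlap between the groups, 6 higher and 11 lower with LGK-974. Many of them hold the same transcripts, so they are not separate results. Among the 11 shares of single transcripts, 1 was higher (Tpm1-219) and 2 were lower (Tpm1-205 and Tpm2-203). Among single transcripts of all genes, 5.64% had a share that was higher without overlap and 5.49% one that was lower.

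Taking the family as a whole, transcripts with the short start 1b made up 6.58%, 4.31% and 8.22% of all tropomyosin TPM with LGK-974 and 3.34%, 3.68% and 3.997% with DMSO. All LGK-974 libraries were higher, by 2.70 points, or 1.77 points without LGK-974 replicate 3. Transcripts with the nonmuscle and smooth muscle end 9d made up 7.30%, 5.03% and 11.3% against 4.64%, 4.18% and 4.92%, also without overlap, a difference of 3.28 points, or 1.59 points without LGK-974 replicate 3. As shares of estimated counts the differences were 5.26 points for 1b and 5.70 points for 9d. The striated end 9a made up 80.8%, 82.6% and 73.4% against 89.1%, 90.4% and 86.7%, lower in all LGK-974 libraries (-9.79 points), a difference that includes the noncoding Tpm1-219 and was -4.20 points among protein-coding transcripts alone. For each of these shares of TPM over all transcripts the two-sided exact permutation p was 0.1, the smallest possible, and 0.229 after adjustment. Tpm3 made up 3.59%, 2.17% and 4.32% of the family's TPM with LGK-974 and 2.13%, 1.87% and 2.04% with DMSO, without overlap, while Tpm4 at 6.66%, 3.82% and 8.13% against 4.50%, 2.68% and 2.81% overlapped. The 1b, 9d and 9a shares hold only transcripts with a complete coding sequence. Tpm4-202 and the short Tpm3 transcripts have no assigned start or end and count in the denominator alone. Tpm4-202 held 61.6% of Tpm4 TPM in DMSO replicate 1 and 43.7% in LGK-974 replicate 2. Counted as 1b and 9d, it would make these shares overlap through DMSO replicate 1.

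Markers of cell types were read beside these shares. The 10 leukocyte markers, from Ptprc to Lyz2, were all higher without overlap and all had an unadjusted p under 0.05, with a median log2 fold change of 0.96, and their summed level was 471 to 602 CPM with LGK-974 and 205 to 293 CPM with DMSO. The study's flow cytometry at the same time ran the other way, with fewer leukocytes and inflammatory monocytes under LGK-974. It counted cells of whole hearts, whereas these values are RNA of the infarct area, and the difference was not examined. Of 10 fibroblast markers, 4 had an unadjusted p under 0.05, all higher (Postn, Col3a1, Col1a2 and Col1a1), with a median over the list of 0.54 and sums of 3474 to 5963 CPM against 1700 to 2511 CPM. A further one, Tcf21, was higher without overlap, while Lum, Dpt, Pdgfra (log2 fold change 0.13), Dcn (0.005) and Fap (-0.21) overlapped. The sums rested largely on Col3a1 and Col1a1, with LGK-974 means of 1568 and 1259 CPM. Of 12 cardiomyocyte markers none had an unadjusted p under 0.05, their median was -0.41 (-0.19 without LGK-974 replicate 3), and their sums of 36621 to 52065 CPM overlapped the 41619 to 58341 CPM of DMSO. With DMSO replicate 1 left out, an alternative chosen after seeing the data, 2 cardiomyocyte markers had an unadjusted p under 0.05, both lower. The 7 smooth muscle and 7 endothelial markers had medians of -0.01 and 0.03 with none under 0.05, and of 5 erythroid markers none was. Of 9 skeletal muscle markers 7 could be tested, of which 1 higher (Tnnt3) and 2 lower had an unadjusted p under 0.05, and without DMSO replicate 1 the lower ones no longer did. The part that these cells had in the tropomyosin values was not tested.

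**Figure D4:**
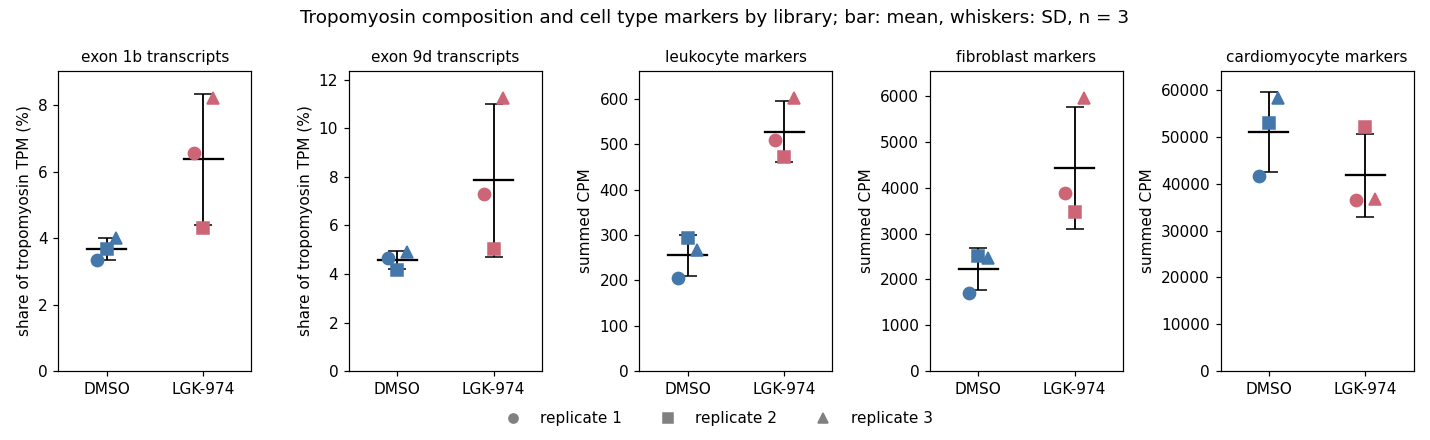
Share of all tropomyosin TPM in transcripts with exon 1b and with exon 9d (left panels, %), and summed CPM of leukocyte, fibroblast and cardiomyocyte markers (right panels), for each library, with the mean and SD of 3. The 2 shares and the leukocyte and fibroblast sums are higher in all LGK-974 libraries, and the cardiomyocyte sums overlap.

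The partners of tropomyosin on the thin filament were read from lists, none of whose genes passed edgeR's quasi-likelihood test after adjustment. DESeq2 called 5 of them, all higher: Tnnt3 (adjusted p 0.0280), Acta1 (0.000745), Actb (0.0259), Actg1 (0.0410) and Actc1 (0.0448). Troponins are the calcium switch that sits on tropomyosin. Of 8 genes 7 could be tested, their median log2 fold change was -0.40, and only Tnnt3, the fast skeletal troponin T, had an unadjusted p under 0.05. It measured 7.24, 3.44 and 6.31 CPM with LGK-974 and 1.85, 2.24 and 1.64 CPM with DMSO, a log2 fold change of 1.57 ± 0.35 (SE). The cardiac genes Tnni3 (log2 fold change -0.44 ± 0.27, SE) and Tnnc1 (-0.31 ± 0.23, SE) overlapped between the groups, as Tpm1 did, and so did Tnnt1 (-0.40 ± 0.22, SE), which encodes slow skeletal troponin T.

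Actins form the filament itself. Of 6 genes 4 had an unadjusted p under 0.05, all higher and without overlap (3 without LGK-974 replicate 3, an alternative chosen after seeing the data), and the median was 0.95. Acta1, the skeletal alpha-actin also made by stressed heart muscle, measured 162, 173 and 171 CPM with LGK-974 and 70.0, 97.3 and 90.4 CPM with DMSO, a log2 fold change of 0.97 ± 0.18 (SE) with an unadjusted p of 0.000749 in edgeR's quasi-likelihood test across all genes. The cytoplasmic actins Actb (0.97 ± 0.30, SE) and Actg1 (0.93 ± 0.28, SE), with which short tropomyosins assemble, were higher by about as much as Tpm3 and Tpm4, and cardiac actin Actc1 was higher by 0.86 ± 0.31 (SE).

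Caldesmon and calponins bind actin and tropomyosin in smooth muscle and nonmuscle cells. All 4 genes had a log2 fold change above 0 with a median of 0.65, and 3 had an unadjusted p under 0.05: Cnn2 (1.08 ± 0.39, SE), Cnn3 (0.64 ± 0.25, SE) and Cald1 (0.55 ± 0.23, SE). Without DMSO replicate 1 only 1 did, and without LGK-974 replicate 3 none. Tropomodulins and leiomodins cap or seed filaments at the pointed end through tropomyosin. Of 7 genes none had an unadjusted p under 0.05, and the median was -0.18 (-0.02 without LGK-974 replicate 3). Tmod3, the form found in most cell types, was the only one without overlap, at 63.8, 51.5 and 60.4 CPM against 46.8, 49.2 and 46.6 CPM (log2 fold change 0.30 ± 0.15, SE), while Lmod3 (0.25 ± 0.17, SE) and Lmod2 (-0.24 ± 0.19, SE) overlapped.

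**Figure D5:**
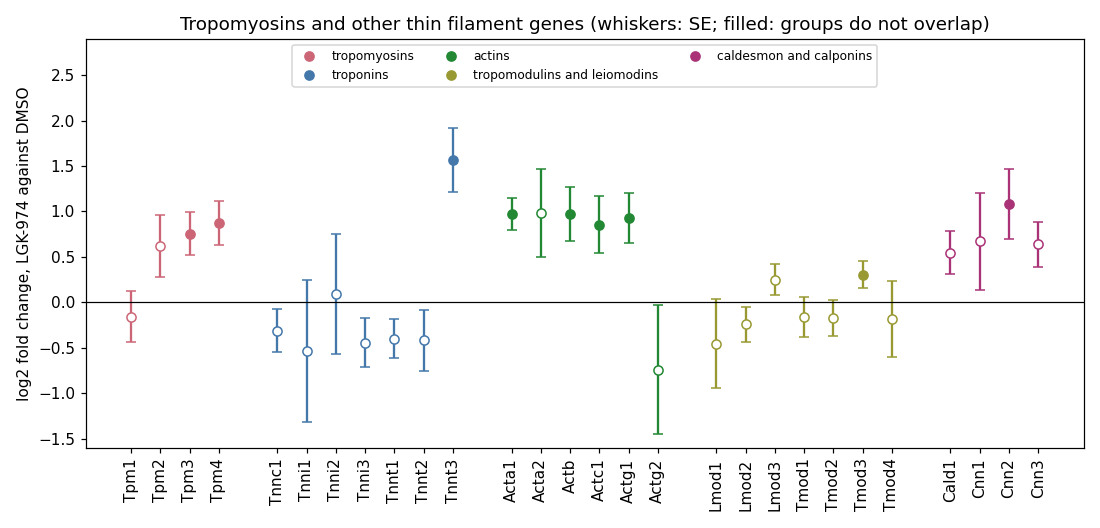
log2 fold change, LGK-974 against DMSO, with its SE (y axis) for the tropomyosins and 4 lists of thin filament genes, with filled points where the 3 libraries of each group do not overlap. Tpm3, Tpm4 and 4 of 6 actins lie above 0 and are filled, while Tpm1 and most troponins lie below 0 with open points.

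Splicing regulators that act on muscle and nonmuscle exons were read in the same way. Of 19 genes tested, 1 higher and 1 lower had an unadjusted p under 0.05, with a median of 0.04. Without DMSO replicate 1 these were 1 and 2, and without LGK-974 replicate 3 they were 1 and 0. Ptbp3, a polypyrimidine tract binding protein, measured 71.8, 68.1 and 82.2 CPM with LGK-974 and 39.6, 53.6 and 54.4 CPM with DMSO, a log2 fold change of 0.59 ± 0.18 (SE). Rbfox1, a regulator of muscle and neuronal exons, measured 8.36, 14.8 and 11.7 CPM against 14.3, 17.5 and 25.6 CPM, a log2 fold change of -0.72 ± 0.28 (SE) with overlap. Ptbp1, which is known to repress muscle exons, differed by 0.57 ± 0.26 (SE) with an unadjusted p of 0.0574 in edgeR's quasi-likelihood test across all genes.

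The promoters of Tpm3 exon 1b and of Tpm4 are shown because their main transcripts, Tpm3-201 and Tpm4-201, were higher without overlap, beside the Tpm3 exon 1a promoter, whose transcripts had a lower share. Each is the 250 bases before the RefSeq start (GRCm38.p6, plus strand), at chr3:90079271-90079520, chr8:72135038-72135287 and chr3:90072401-90072650. The whole Tpm4 window lies within the Tpm4 gene coordinates given above, which come from a different annotation. So do parts of the Tpm1 and Tpm2 windows searched below. Capitals mark GGGCGG, a binding motif of Sp1, on either strand.
Tpm3 promoter of exon 1b: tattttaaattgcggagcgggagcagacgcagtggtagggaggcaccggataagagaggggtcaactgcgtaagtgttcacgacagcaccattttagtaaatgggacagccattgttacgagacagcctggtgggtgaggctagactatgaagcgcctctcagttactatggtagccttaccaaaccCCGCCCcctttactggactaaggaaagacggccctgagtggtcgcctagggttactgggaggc
Tpm4 promoter of exon 1b: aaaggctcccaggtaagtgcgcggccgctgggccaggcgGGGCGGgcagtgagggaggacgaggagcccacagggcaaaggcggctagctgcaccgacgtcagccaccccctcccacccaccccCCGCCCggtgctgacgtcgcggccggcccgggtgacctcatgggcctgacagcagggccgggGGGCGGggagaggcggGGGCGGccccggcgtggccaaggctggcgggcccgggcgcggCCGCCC
Tpm3 promoter of exon 1a: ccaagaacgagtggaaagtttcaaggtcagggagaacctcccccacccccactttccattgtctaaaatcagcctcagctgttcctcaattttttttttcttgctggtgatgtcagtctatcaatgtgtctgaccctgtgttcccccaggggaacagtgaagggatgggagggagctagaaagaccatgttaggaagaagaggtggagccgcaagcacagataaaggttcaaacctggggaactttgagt

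Both strands were searched in 5 tropomyosin promoters for GGGCGG, for CATTCC, the motif of TEAD factors, and for the CArG box, the motif of serum response factor. The 1b promoter of Tpm3 held 1 GGGCGG, that of Tpm4 held 5, and the 1a promoter of Tpm3 held 0, while Tpm1 held 1 and Tpm2 held 2. Of 32851 mouse promoters of the same length, 32.7% held GGGCGG, 12.6% CATTCC and 1.47% a CArG box. CATTCC occurred once, in Tpm1, and no CArG box was in these windows. A match to these letters is a description and does not show binding.

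The genes most like each tropomyosin were ranked by Pearson's r of log2 CPM over 6 libraries among 17963 protein-coding genes tested. For Tpm3 they were Sf3b3 (r = 0.999), Pprc1 (0.999) and Tubb6 (0.999), and for Tpm4 Cntrl (0.999), Ptpre (0.998) and Palm2 (0.998). Tpm3 and Tpm4 had an r of 0.985 with each other. For Tpm2 they were Rgs16 (0.996), Tbl2 (0.989) and Ocrl (0.988), and for Tpm1 Neurl2 (0.987), Gm4724 (0.986) and Grhpr (0.985), while Tpm1 had an r of -0.40 with Tpm3 and -0.53 with Tpm4. The 6 points share treatment, depth and library composition, and the values are given only as a description.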

How the data were processed

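RNA sequencing of the infarct area was analysed for 3 LGK-974 and 3 DMSO libraries. Per the study's methods, the authors removed ribosomal RNA, prepared libraries with a capture kit and quantified them with Kallisto against the Ensembl GRCm38 transcriptome. The estimated counts and TPM values deposited per transcript were used as they are, except that estimated counts were rounded before testing. The length and effective length of each transcript, also deposited by the authors, were used only as descriptions. The Kallisto version and word length are not given in the sources used here.

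Transcripts were joined to genes through GENCODE M21 (GRCm38), which covered 116816 of 118489. Genes and transcripts with at least 10 counts in at least 3 libraries were tested with edgeR 4.0.16 (R 4.3.3; quasi-likelihood test, TMM, Benjamini-Hochberg adjustment over all features, threshold 0.05), and usage with its differential splicing test. The edgeR tests of level and usage were also run on simulated counts. There the spread between libraries was capped below that of the data (common dispersion 0.238 for genes and 0.607 for transcripts). Depth was 41579787 to 80398211 estimated counts, and the number of libraries limits precision. Shares of TPM were compared by a two-sided exact permutation test over 20 splits. Exon groups came from the start, stop and internal coding exons of transcripts with a complete coding sequence. Named were all 4 genes, transcripts with at least 5% of the gene's TPM, up to 3 genes of lowest p per list, and the 3 genes most like each member. Beyond this rule, marker genes, Actc1, Tnnc1, Tpm1-201, Tpm1-207, Tpm1-209, Tpm1-218, Tpm1-221, Tpm2-202, Tpm3-204 and Tpm3-205 were named after their values were seen. The members and lists were chosen with earlier results of these data known. Alternatives were DESeq2 1.42.0, its size factors, no filter, counts scaled from TPM, single libraries left out and a replicate block, and for shares also estimated counts in place of TPM and protein-coding transcripts only. Promoters came from RefSeq, with 5 rows matched to the 4 genes. Figures used matplotlib 3.10.9.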

Additional observations from a re-analysis of the deposited data

How the results depend on the processing

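The log2 fold changes of the 4 genes kept their sign under all 11 alternatives run for each, and Tpm4 passed the threshold under DESeq2 (0.90, adjusted p 0.0309). The count of genes called by edgeR's quasi-likelihood test, 0, became 1206 with no filter on low counts and 289 with DESeq2, and was 0 to 2 with single libraries left out (2 without DMSO replicate 1); the transcript count, 0, became 1 and 491 and was 0 throughout with libraries left out. The usage count, 68, was 20 to 99 with single libraries left out (30, 20 and 21 without LGK-974 replicates 1, 2 and 3, and 25 without DMSO replicate 2). The count of shares without overlap, 17, was 22 with estimated counts and 15 with protein-coding transcripts only. It was 18 to 24 with libraries left out, where it could not fall, because dropping a library can only remove an overlap. The replicate numbers pair nothing in the labels: same-numbered libraries correlated at 0.475, -0.048 and 0.391, and not every library correlated best with its own number. With the replicate block the usage count was 17, 28 shares moved one way in every pair, and 0 genes and 0 transcripts were called.

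Usage of the transcripts near 0 changed sign. With single libraries left out, Tpm3-214 lay between -0.25 (without DMSO replicate 2) and 2.21 (without DMSO replicate 1), Tpm4-201 between -0.035 and 0.023, and Tpm4-202 between -0.28 and 0.60. With no filter Tpm4-201 was at -0.0019 and Tpm4-202 at 0.026, and with the replicate block Tpm4-202 was at 0.092. The causes were not tested. With 3 libraries a group, the share tests could not go below 0.1.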

Other observations

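Of the 6 tropomyosin transcripts at 0 in every library, 5 belong to Tpm1 and 1 to Tpm3. A further 7 had counts but did not pass the filter. The 3 Tpm1 transcripts without overlap, Tpm1-209, Tpm1-218 and Tpm1-221, were all higher with LGK-974 at low levels, for example 8.25, 9.62 and 9.79 CPM against 4.41, 8.03 and 7.42 CPM for Tpm1-209, which ends in exon 9c. The noncoding Tpm1-221, of which 1138 of 1244 words of 31 bases are unique, measured 8.62, 9.60 and 8.91 CPM against 7.33, 7.91 and 4.45 CPM, with an adjusted p of 0.857 in edgeR's quasi-likelihood test. Tpm1-201, a second striated transcript with a longer end, held 0.857% to 1.06% of Tpm1 TPM with LGK-974 and 0.528% to 0.803% with DMSO, and its CPM overlapped.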
